A study of Mus musculus with 2 samples.

Results

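Homing and chemokine receptors decide where a T cell goes, and 9 of them were followed here in spleen T cells after T cell deletion of the gene for PRMT5, an enzyme that methylates arginines, and in control T cells. The members were the genes Ccr7, S1pr1, Cxcr4, Cxcr3, Cxcr6, Cxcr5, Ccr9, Ccr6 and Cx3cr1, found by symbol in the gene list of both libraries, 9 of 30905 genes. Each symbol matched 1 gene identifier. CD3+ T cells were sorted from the spleens of C57BL/6 mice and profiled with droplet 3′ single-cell RNA sequencing (10x Genomics, chemistry V3.1). The Prmt5 CKO library came from mice with a floxed PRMT5 gene (PRMT5fl/fl) and a CD4-Cre transgene, which acts from the thymic stage at which CD4 is made and so covers both CD4 and CD8 T cells of the alpha-beta lineage. The control library is named as WT in its title and design text, although the genotype field of both samples reads CD4-Cre+ PRMT5fl/fl, so groups were taken from the titles. The age of the mice is not given in the sources used here. Each group was 1 library from 3 mice, and cells could not be assigned to mice. Differences between the libraries therefore have no replicate check, and genotype and library cannot be told apart.

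Chemokine receptors are G protein-coupled receptors that steer cells up gradients of their ligands. CCR7 brings naive and central memory T cells into lymph nodes and the splenic T zone along CCL19 and CCL21, and S1PR1 lets them leave again along sphingosine 1-phosphate. CXCR4 reads CXCL12, the chemokine of the bone marrow niche. CXCR3 reads the interferon-induced ligands CXCL9 and CXCL10, CXCR6 reads CXCL16 and marks liver and tissue-seeking T cells, and CX3CR1 reads fractalkine and marks circulating cytotoxic effectors. CCR9 guides cells towards CCL25 in the small intestine and thymus, CCR6 guides type 17 cells and a subset of regulatory cells towards CCL20, and CXCR5 guides follicular helper cells towards CXCL13 in B cell follicles.

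In mm10 (GENCODE vM21 gene models), 4 members lie on chromosome 9: Cxcr5 (ENSMUSG00000047880, 44511787 to 44561877), Cx3cr1 (ENSMUSG00000052336, 119901616 to 120069879), Ccr9 (ENSMUSG00000029530, 123678439 to 123784330) and Cxcr6 (ENSMUSG00000048521, 123806475 to 123811760). Only 22.1 kb separate the gene models of Ccr9 and Cxcr6. The other 5 genes lie apart: Ccr7 (ENSMUSG00000037944) on chromosome 11 at 99144196 to 99155077, S1pr1 (ENSMUSG00000045092) on chromosome 3 at 115710433 to 115715072, Cxcr4 (ENSMUSG00000045382) on chromosome 1 at 128588199 to 128592293, Cxcr3 (ENSMUSG00000050232) on chromosome X at 101731535 to 101734269, and Ccr6 (ENSMUSG00000040899) on chromosome 17 at 8236043 to 8257141. The Ccr9 and Cx3cr1 models overlap annotated genes on the same strand (Gm17200 and Gm17020, and Gorasp1, Csrnp1 and Xirp1), so reads in the shared stretches cannot be assigned with certainty. RefSeq promoter windows (GRCm38.p6, 250 bases before to 50 after the annotated start) were at hand for 6 of the 9 genes. The windows printed here belong to Cxcr4, which was lower in the CKO library in 12 of 13 T cell types, and to the neighbours Cxcr6 and Ccr9, whose ratios in naive-like CD8 cells were unlike. Capitals mark matches on either strand to 2 motifs, the KLF core CACCC and the T-box site TCACACC.
Cxcr4 promoter (chr1:128592250-128592549, - strand): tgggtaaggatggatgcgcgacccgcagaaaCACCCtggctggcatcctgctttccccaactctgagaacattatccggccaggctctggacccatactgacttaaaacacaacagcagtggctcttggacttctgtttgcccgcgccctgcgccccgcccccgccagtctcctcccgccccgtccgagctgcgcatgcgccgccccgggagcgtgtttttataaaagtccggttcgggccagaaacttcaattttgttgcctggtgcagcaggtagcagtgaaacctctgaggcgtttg
Cxcr6 promoter (chr9:123806227-123806526, + strand): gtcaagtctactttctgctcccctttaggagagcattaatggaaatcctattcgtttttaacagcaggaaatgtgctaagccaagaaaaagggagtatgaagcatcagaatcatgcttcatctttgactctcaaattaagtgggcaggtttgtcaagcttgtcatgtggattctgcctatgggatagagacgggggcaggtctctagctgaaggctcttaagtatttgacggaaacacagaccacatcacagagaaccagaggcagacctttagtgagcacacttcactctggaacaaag
Ccr9 promoter (chr9:123766961-123767260, + strand): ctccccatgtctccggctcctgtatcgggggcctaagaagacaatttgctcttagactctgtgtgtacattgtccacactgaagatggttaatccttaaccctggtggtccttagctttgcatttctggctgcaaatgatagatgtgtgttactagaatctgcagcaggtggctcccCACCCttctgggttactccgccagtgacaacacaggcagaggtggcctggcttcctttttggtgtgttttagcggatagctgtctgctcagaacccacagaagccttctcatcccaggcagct
The Cxcr4 window holds 1 KLF core, whose first base lies 219 bases before the start site, and the Ccr9 window holds 1, starting 73 bases before it. The Cxcr6 window holds neither motif. Of the member windows not shown, Cx3cr1 holds 2 KLF cores, and those of Ccr6 and Cxcr3 hold neither motif. A KLF core is found in 57.5% of all 32851 promoter windows and a T-box site in 3.98%, and no strand of a member window held a T-box site. These matches describe letters only.

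The CKO library held 7896 barcodes and the control library 7407, of which 7660 and 6712 were kept and 7564 and 6619 were T cells. The T cells carried 51330142 unique molecular identifiers (UMIs, counted RNA molecules) in the CKO library and 46709831 in the control library, with medians of 6048.5 and 6289 per cell. The filter removed 2.99% of CKO barcodes and 9.38% of control barcodes, the median mitochondrial share of T cells was 4.33% and 5.09%, and 13 immediate early and stress genes summed to 4609 CPM (counts per 1000000 UMIs) in CKO and 4813 in control T cells, with 8 of the 13 lower in CKO. Their part in the results was not tested. Prmt5 itself had 4.87 CPM in CKO and 15.03 CPM in control T cells, a ratio of 0.324 (95% interval 0.279 to 0.375). Of the lists for other cells the sort could carry, those of B cells summed to 249.6 CPM in CKO and 249.9 in control T cells, and those of myeloid cells to 115 and 89.7 CPM, with 7 of 7 myeloid genes higher in CKO. All intervals here are exact 95% intervals for counting error only, and 11 barcode sequences occurred in both libraries.

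Cell types came from clusters made without the receptor genes, so that no member helped to define the type in which it is described. For Cxcr6, Ccr9, Cxcr5 and Cx3cr1 the T cell type with the highest level was the same in both libraries. Ccr7 was highest in naive-like cells in both libraries, with 234 CPM in naive-like CD8 and 235 CPM in naive-like CD4 cells of the CKO library, levels whose intervals overlap. In the control library the same types had 343 and 317 CPM. Among types with at least 15 Ccr7 UMIs in each library it was lowest in S100a4-high memory-like CD4 cells, at 26.1 CPM in CKO and 44.3 CPM in control, and in effector-like CD8 cells, at 26.7 and 50.9 CPM. S1pr1 had CKO levels between 85.9 CPM in NKT-like cells (8 UMIs) and 217 CPM in naive-like CD4 cells. In the control library it ran from 49.6 CPM in NKT-like to 274 CPM in S100a4-low memory-like CD4 cells.

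Cxcr6 peaked in γδ-like cells (703 CPM in CKO, 482 in control), NKT-like cells (311 and 467 CPM) and S100a4-high memory-like CD4 cells (347 and 136 CPM). Naive-like CD4 cells had 0.737 CPM of Cxcr6 in CKO and 0.600 CPM in control, with a Cxcr6 UMI in 0.402% and 0.352% of cells (median 5567 and 5688.5 UMIs per cell). No background estimate was made, and the source of these UMIs was not tested. Cxcr3 was high in S100a4-high memory-like CD4 cells (193 and 202 CPM) and in effector-like CD8 cells (134 and 116 CPM). It was also high in NKT-like cells (107 and 190 CPM) and S100a4-low memory-like CD4 cells (159 and 120 CPM), and had 0.260 and 0.720 CPM in naive-like CD4 cells. Cx3cr1 was confined in large part to effector-like CD8 cells, which supplied 67.5% of its UMIs in CKO T cells and 63.4% in control T cells. Naive-like CD8 cells supplied 63.4% of Ccr9 UMIs in CKO and 72.5% in control. Ccr6 UMIs came mainly from S100a4-high memory-like CD4, Treg-like and γδ-like cells, and Cxcr5 was sparse throughout, with 78 UMIs in CKO and 130 in control T cells.

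**Figure D1:**
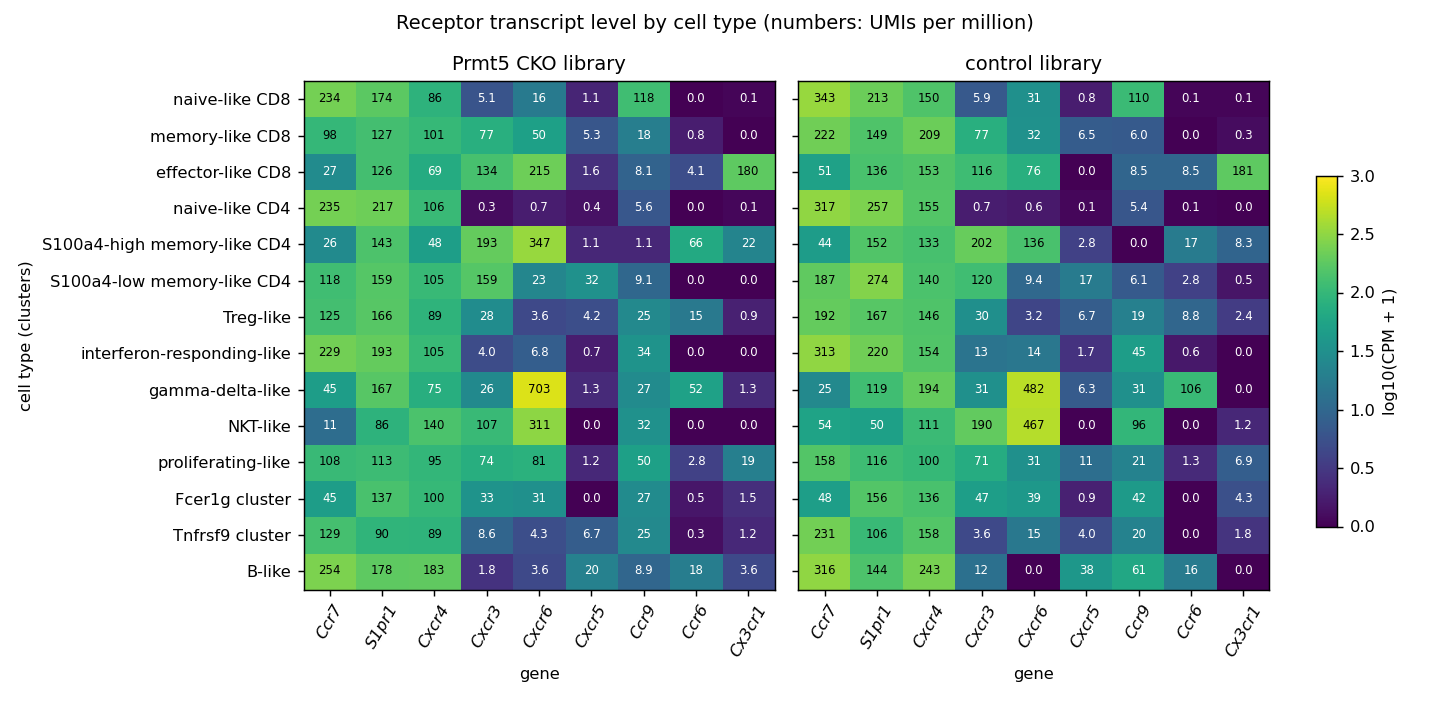
Level of each receptor in each cell type, as log10 of CPM plus 1 in colour and as CPM in figures, with the Prmt5 CKO library left and the control library right. Columns are genes and rows are cell types from clusters. Cxcr6 stands at 703 CPM in γδ-like CKO cells, and Cx3cr1 at 180 CPM in effector-like CKO cells and 181 CPM in effector-like control cells.

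Ccr7 and Cxcr4 were lower in the CKO library in nearly every T cell type. Over all T cells Ccr7 had 189.9 CPM in CKO and 273 CPM in control, a ratio of 0.696 (0.678 to 0.715), and Cxcr4 had 96.4 and 153 CPM, a ratio of 0.629 (0.607 to 0.653). The Ccr7 ratio lay below 1 in 12 of 13 T cell types (1 mixed cluster is left out of these counts), and its whole interval did so in 9. For Cxcr4 these counts were 12 and 10 of 13. The exceptions were γδ-like cells for Ccr7 (35 UMIs in CKO, 4 in control) and NKT-like cells for Cxcr4 (13 and 94 UMIs), both thinly filled. Among all 11515 genes with at least 50 UMIs in the T cells of both libraries together, 4.93% were 1.5-fold or more higher in CKO and 2.12% were that much lower. Of the 9 members, all above that minimum, 2 were past 1.5-fold higher (Ccr6, Cx3cr1) and 2 past it lower (Cxcr4, Cxcr5). The Ccr6 ratio was 2.10 (1.58 to 2.82), on 164 UMIs in CKO and 71 in control, and it was 1.40 both under the stricter filter of 1000 genes and 5% mitochondrial UMIs and with the CKO types weighted as in the control library. With that weighting Cx3cr1 stood at 1.25 and Cxcr5 at 1.08, so 3 of the 4 genes were no longer past 1.5-fold. Cxcr4 stayed past it with that weighting (0.635), but under the stricter filter its ratio of 0.670 fell just short of 1.5-fold lower.

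Within types the sizes differed. In naive-like CD8 cells Ccr7 had 234 CPM in CKO and 343 CPM in control (ratio 0.682, 0.647 to 0.718), and Cxcr4 had 86.1 and 150.0 CPM (0.574, 0.527 to 0.624). In memory-like CD8 cells, marked by Ly6c2 and Il2rb, Ccr7 had 98.1 and 222 CPM (0.441, 0.364 to 0.532), and Cxcr4 had 101 and 209 CPM (0.485, 0.400 to 0.583). The memory-like CD8 clusters differed in more than the receptors. Genes of γδ T cells summed to 778 CPM in CKO and 61.5 CPM in control memory-like CD8 cells (6 of 9 higher, Il17a and Il1r1 at 0 in both), and the genes of the cluster led by Fcer1g to 624 and 55.2 CPM (4 of 4 higher). The CD8 genes summed to 727 and 1111.5 CPM (2 of 2 lower) and the naive T cell genes to 1658 and 1776 CPM (5 of 5 lower). Without the 90 of 151 CKO cells and 46 of 365 control cells that held a UMI of Trdc, Tcrg-C1, Tcrg-C2, Trdv4, Fcer1g or Tyrobp, an alternative chosen after seeing the data, Ccr7 had 119 CPM in CKO and 232 CPM in control (0.516, 0.399 to 0.657) and Cxcr4 had 89.5 and 207 CPM (0.432, 0.321 to 0.571). The Ccr7 intervals of naive-like and memory-like CD8 cells do not overlap over all cells of these types, but they do without those cells. In effector-like CD8 cells Cxcr4 had 68.9 CPM in CKO and 153 CPM in control (0.451, 0.317 to 0.647), and Ccr7 had 33 UMIs in CKO and 18 in control (0.525, 0.287 to 0.991). Members past 1.5-fold lower were 2 of 6 measured in naive-like CD8 cells (Cxcr4 and Cxcr6, background 2.04%, with 0 higher in a background of 5.16%), 2 of 5 in memory-like CD8 cells (Ccr7 and Cxcr4, background 4.17%) and 2 of 6 in effector-like CD8 cells (Ccr7 and Cxcr4, background 7.84%).

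Genes of recent thymic emigrants were higher in the naive-like cells of the CKO library, with sums of 489 CPM in CKO and 288 CPM in control naive-like CD8 cells and 852 and 550.1 CPM in naive-like CD4 cells (4 of 4 higher in each). Over all T cells they summed to 736 CPM in CKO and 459 CPM in control. Their part in the lower Ccr7 and Cxcr4 levels was not tested.

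CD4 cells showed the same direction. In naive-like CD4 cells Ccr7 had 235 CPM in CKO and 317 CPM in control (0.741, 0.714 to 0.770), and Cxcr4 had 106 and 155 CPM (0.682, 0.645 to 0.721), with no member of 4 measured past 1.5-fold in a background of 1.87% lower and 4.12% higher. In Treg-like cells Ccr7 had 125 and 192 CPM (0.651, 0.575 to 0.735), and Cxcr4 had 89.1 and 146 CPM (0.609, 0.526 to 0.703), both past 1.5-fold lower in a background of 4.57%. Cxcr4 was also lower in S100a4-high memory-like CD4 cells, at 47.6 CPM in CKO and 133 CPM in control (0.358, 0.231 to 0.554, background 4.44% lower). It did not pass 1.5-fold in proliferating-like cells, with 94.8 CPM in CKO and 100.004 CPM in control (0.948, 0.772 to 1.17).

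Over all T cells the share of positive cells followed the levels of Ccr7 and Cxcr4. After each cell was thinned to 2000 UMIs, 29.9% of CKO T cells and 39.2% of control T cells had a Ccr7 UMI, and 17.8% and 25.6% had a Cxcr4 UMI (60.3% and 70.1%, and 42.4% and 57.4%, without thinning). The 53 CKO and 25 control T cells with fewer than 2000 UMIs were left out. Within types, the interval of the share ratio lay below 1 for both genes in naive-like CD8 (Ccr7 0.742, Cxcr4 0.618) and naive-like CD4 cells (0.796 and 0.733), among others. It included 1 for Ccr7 in Treg-like cells (0.834, 0.638 to 1.09), among others. For Cxcr4 it did so in effector-like CD8 (0.836, 0.359 to 2.17) and proliferating-like cells (1.265, 0.604 to 2.84), among others. Without thinning there were 2.14 Ccr7 UMIs per positive CKO cell and 2.75 per positive control cell. Such a count falls with the level and with depth, so it is not a separate result.

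S1pr1 was lower by less. Over all T cells it had 181 CPM in CKO and 209 CPM in control (0.870, 0.846 to 0.895), with 174 and 213 CPM in naive-like CD8 cells (0.820, 0.770 to 0.873) and 217 and 257 CPM in naive-like CD4 cells (0.847, 0.814 to 0.883). In Treg-like cells its levels were 166 CPM in CKO and 167 CPM in control (0.993, 0.883 to 1.11). In S100a4-low memory-like CD4 cells, of which the CKO library held 28, they were 159 and 274 CPM (0.581, 0.401 to 0.818). The interval of the S1pr1 ratio lay wholly below 1 in 3 of 13 types, so within most types a difference was not detectable at this depth.

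**Figure D2:**
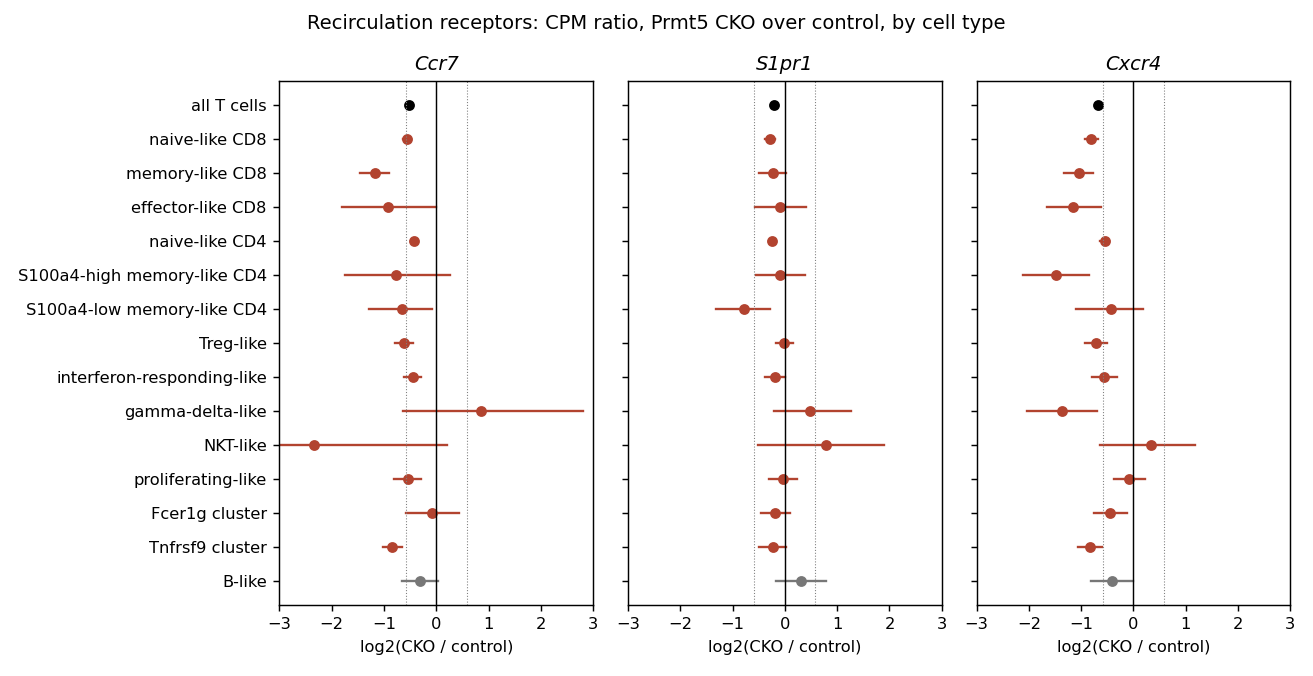
Ratio of CPM in Prmt5 CKO over control on a log2 scale for Ccr7, S1pr1 and Cxcr4 in all T cells (black), each T cell type (red) and B-like cells (grey), with exact 95% intervals for counting error. Dotted lines mark 1.5-fold, the interval of Ccr7 in NKT-like cells runs past the axis, and the Cxcr4 ratio of memory-like CD8 cells stands at 0.485.

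Other measured facts stand beside these lower levels. B-like cells were carried over by the sort as 72 CKO and 67 control cells. They also held T cell RNA: 28.8% of them had a Cd3e UMI, 6 T cell genes summed to 2285 CPM in CKO and 1668 CPM in control (6 of 6 higher, beside 6786 and 6611 CPM in T cells), and the naive T cell genes to 1051 and 989.6 CPM. Their Ccr7 level was 254 CPM in CKO and 316 CPM in control (0.805, 0.632 to 1.03) and their Cxcr4 level 183 and 243 CPM (0.755, 0.569 to 1.002). Their S1pr1 level was 178 and 144 CPM (1.24, 0.891 to 1.73). All 3 intervals include 1, and those of Ccr7 and Cxcr4 also overlap the intervals of naive-like CD4 cells. The part of T cell RNA in these levels was not tested.

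Naive-like CD4 cells fell into 4 clusters, and cluster 10, led by Pdlim4, Ly6c1 and Dapl1, held 1320 CKO cells and 60 control cells. The other 3 clusters held 2663 CKO and 2778 control cells. In clusters 7, 8 and 9 Ccr7 had 277, 253 and 216 CPM in CKO and 348, 313 and 266 CPM in control, and Cxcr4 had 110.4, 106 and 93.2 CPM in CKO and 156, 164 and 141 CPM in control. The difference was thus present in each of these 3 clusters, with no overlap of the intervals. In cluster 10 Ccr7 had 199 CPM in CKO and 240.2 CPM in control, S1pr1 had 197 and 225 CPM, and Cxcr4 had 107 and 105 CPM, the control values resting on 96, 90 and 42 UMIs.

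**Figure D3:**
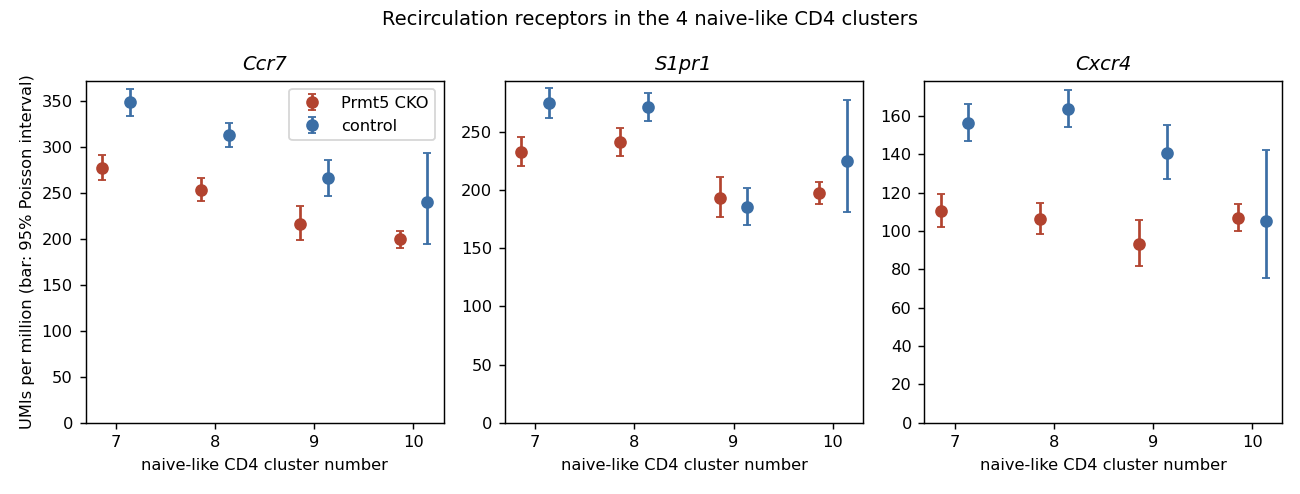
CPM of Ccr7, S1pr1 and Cxcr4 in the 4 naive-like CD4 clusters (cluster number on the x axis), Prmt5 CKO in red left of control in blue, with 95% Poisson intervals. Ccr7 stands at 277 CPM in CKO and 348 CPM in control cells of cluster 7, and Cxcr4 at 107 and 105 CPM in cluster 10.

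Other genes of lymph node entry and exit differed little. Of 7 measured genes of this list, 0 passed 1.5-fold over all T cells in either direction (background 4.93% higher and 2.12% lower). A ratio above 1 was found for 3 of them, with a median log2 ratio of -0.08 beside 0.05 for all genes. Cd69, which holds S1PR1 inside the cell, had 889 CPM in CKO and 769.8 CPM in control (1.16, 1.14 to 1.17). Klf2, the factor that drives S1pr1 in T cells, had 987 and 1178 CPM (0.838, 0.828 to 0.848), and it was 0.849 in naive-like CD8, 0.845 in naive-like CD4 and 0.780 in memory-like CD8 cells. Foxo1, which drives Klf2 and Ccr7, had 129.9 and 138 CPM (0.944, 0.912 to 0.977). Among 38 measured genes of receptor signalling 0 passed 1.5-fold over all T cells, in the same background. Rasgrp2, an exchange factor for the integrin switch RAP1, had 311 and 222 CPM (1.40, 1.37 to 1.44), and passed 1.5-fold in naive-like CD8 cells (1.55) and Treg-like cells (1.63).

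Guidance receptors for lipids and oxysterols differed in both directions. Of 11 measured, 3 were past 1.5-fold higher over all T cells and 1 was lower (background 4.93% higher and 2.12% lower). P2ry10, a lysophospholipid receptor, had 39.3 CPM in CKO and 63.9 CPM in control (0.615, 0.581 to 0.651), and was lower in naive-like CD4 (0.537), naive-like CD8 (0.680) and effector-like CD8 cells (0.573). Ltb4r1, the leukotriene B4 receptor, had 261 UMIs in CKO and 47 in control (5.05, 3.69 to 7.05). Of these, 114 and 12 came from γδ-like cells, which were 1.34% of CKO and 0.257% of control T cells. Inside γδ-like cells the Ltb4r1 ratio was 1.96 (1.08 to 3.91). Inside S100a4-high memory-like CD4 cells, with 76 and 9 UMIs, it was 3.46 (1.73 to 7.85). S1pr5 had 149 and 74 UMIs (1.83, 1.38 to 2.46), and Gpr34 had 243 and 131 UMIs (1.69, 1.36 to 2.10). Within effector-like CD8 cells S1pr5, which carries effector cells out of tissue, had 83.4 CPM in CKO and 136 CPM in control (0.615, 0.433 to 0.885), the opposite direction to all T cells. Gpr183, the oxysterol receptor that places cells at the border of the follicle and the T zone, had 134 and 165 CPM (0.808, 0.782 to 0.835).

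Cxcr6 differed in opposite directions in different types. Over all T cells it had 35.0 CPM in CKO and 26.9 CPM in control (1.302, 1.21 to 1.40). It was higher in effector-like CD8 cells, at 215 CPM in CKO and 76.3 CPM in control (2.81, 1.89 to 4.35), in S100a4-high memory-like CD4 cells, at 347 and 136 CPM (2.56, 1.89 to 3.53), in proliferating-like cells, at 81.1 and 30.6 CPM (2.65, 1.93 to 3.70), in memory-like CD8 cells, at 49.8 and 32.1 CPM (1.55, 1.13 to 2.11), and in γδ-like cells, where it was most abundant, at 703 and 482 CPM (1.46, 1.15 to 1.88). The γδ T cell genes moved with it in effector-like CD8 cells, with a sum of 541 CPM in CKO and 127 CPM in control (6 of 9 higher, with among others Trdc, Trdv4, Sox13, Il17a and Il1r1 at 0 in control), as did the genes of the cluster led by Fcer1g (425 and 48.0 CPM, 3 of 4 higher). Without cells that held a UMI of the 6 γδ and Fcer1g-cluster genes named above, which left 62 CKO and 37 control cells, Cxcr6 had 189 CPM in CKO and 61.1 CPM in control effector-like cells (3.08, 1.797 to 5.63). In memory-like CD8 cells the same step ended the call, with 31.5 CPM in CKO and 30.1 CPM in control (1.05, 0.605 to 1.73).

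Cxcr6 was lower in naive-like CD8 cells, at 16.3 CPM in CKO and 31.1 CPM in control (0.524, 0.431 to 0.634), and in NKT-like cells, at 311 and 467 CPM (0.667, 0.440 to 0.972). On fewer UMIs it was also lower in interferon-responding-like cells (19 UMIs in CKO, 25 in control) and in the cluster led by Myb and Tnfrsf9 (14 and 33). The interferon-responding-like type joins cluster 6, a CD8 cluster with 78 CKO and 87 control cells, and cluster 12, mainly CD4, with 357 and 170. Within cluster 6 Cxcr6 had 16.1 CPM in CKO and 28.4 CPM in control, and within cluster 12 4.18 and 4.85 CPM, with overlapping intervals in both. In the cluster led by Myb and Tnfrsf9 the stricter filter turned the ratio to 1.40. Cxcr6 was 1 of 6 measured members past 1.5-fold higher in effector-like CD8 cells (background 6.68%) and 1 of 5 in memory-like CD8 cells (background 6.69%). In S100a4-high memory-like CD4 cells 2 of 5 passed, Cxcr6 and Ccr6 (background 10.3%), and in proliferating-like cells 3 of 7, Cxcr6, Ccr9 and Cx3cr1 (background 6.39%, with 0 lower in a background of 3.14%). The naive-like and effector-like intervals lie on opposite sides of 1, and this difference between types was not tested over mice. Shares after thinning had the same order in naive-like and effector-like CD8 cells. Of naive-like CD8 cells, 2.89% in CKO and 5.78% in control had a Cxcr6 UMI, as had 35.1% and 17.8% of effector-like CD8 cells (27.5% to 43.4% and 8.002% to 32.1%). The effector-like control group had only 45 cells, and the interval of the ratio of these shares (0.932 to 4.82) includes 1. In γδ-like cells the order was the other way from the level, with a Cxcr6 UMI in 65.0% of CKO and 76.5% of control cells (ratio 0.850, 0.464 to 1.68).

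Ccr9, the neighbour of Cxcr6 on chromosome 9, did not share its lower level in naive-like CD8 cells. It had 118 CPM in CKO and 110.0 CPM in control naive-like CD8 cells (1.07, 0.990 to 1.16), and a UMI in 21.0% and 19.0% of the thinned cells. Within these cells Cxcr6 and Ccr9 were found together in some cells: of 127 CKO cells with a Cxcr6 UMI 61 also had a Ccr9 UMI (48.0%, beside 46.6% of all), and of 285 control cells 130 did (45.6%, beside 43.0%). Outside naive-like CD8 cells, Ccr9 was higher in proliferating-like cells, at 50.02 CPM in CKO and 20.6 CPM in control (2.43, 1.64 to 3.68), and in memory-like CD8 cells, with 24 and 22 UMIs (3.03, 1.63 to 5.66). It was lower in the cluster led by Fcer1g, at 27.3 and 41.6 CPM (0.656, 0.435 to 0.990), a direction that turned under the stricter filter (1.22). NKT-like cells had 3 Ccr9 UMIs in CKO and 81 in control (32.2 and 95.6 CPM, 0.337, 0.068 to 1.02). These 4 groups supplied few Ccr9 UMIs beside the 1116 CKO and 1302 control UMIs of naive-like CD8 cells.

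Cx3cr1 had 329 UMIs in CKO and 101 in control T cells (6.41 and 2.16 CPM, ratio 2.96, 2.37 to 3.74), while inside effector-like CD8 cells it had 179.8 CPM in CKO and 181 CPM in control (0.994, 0.750 to 1.33). Its ratio over all T cells was 1.61 when the cell filter was set to 1000 genes or more and a mitochondrial share under 5%. Effector-like cells made up 1.97% of CKO T cells and 0.680% of control T cells. After thinning, 32.4% of CKO and 24.4% of control effector-like cells had a Cx3cr1 UMI, with intervals of 24.98% to 40.6% and 12.9% to 39.5%. Within CKO effector-like cells 30 of 70 cells with a Cxcr3 UMI also had a Cx3cr1 UMI (42.9%, 31.1% to 55.3%), beside 61.1% of all 149 cells. The Cxcr3-positive cells were the deeper ones, with a median of 8468.5 UMIs beside 6580. Cxcr6 was found in 52 of these 70 cells (74.3%, beside 66.4% of all).

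Cxcr3 had 20.1 CPM in CKO and 27.4 CPM in control T cells (0.732, 0.674 to 0.795), but its level inside several types was close. It had 77.0 and 76.7 CPM in memory-like CD8 cells (1.004, 0.792 to 1.26), 134 and 116 CPM in effector-like CD8 cells (1.15, 0.815 to 1.67), 193 and 202 CPM in S100a4-high memory-like CD4 cells (0.953, 0.721 to 1.27) and 27.6 and 30.3 CPM in Treg-like cells (0.910, 0.683 to 1.21). These intervals leave room for differences of their own width in either direction. In NKT-like cells, which supplied 12.6% of control Cxcr3 UMIs, Cxcr3 had 107 and 190 CPM (0.565, 0.266 to 1.07). Without cells holding a UMI of the 6 γδ and Fcer1g-cluster genes, memory-like CD8 cells had 44.8 and 69.6 CPM (0.643, 0.415 to 0.961). Over all cells of a type, the Cxcr3 interval left 1 out in interferon-responding-like cells, with 11 UMIs in CKO and 23 in control. It did so too in the cluster led by Myb and Tnfrsf9, with 28 and 8 UMIs, where the stricter cell filter turned the ratio to 0.779. Inside the interferon-responding-like type Cxcr3 had 4.82 CPM in CKO and 22.7 CPM in control in cluster 6 (3 and 16 UMIs), and 3.71 and 6.79 CPM in cluster 12 (8 and 7 UMIs).

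Ccr6 was found mainly in 3 types. In S100a4-high memory-like CD4 cells it had 58 UMIs in CKO and 6 in control (65.8 and 16.6 CPM, ratio 3.96, 1.71 to 11.2). All 58 and all 6 of these UMIs came from 1 of the 2 sub-clusters of this type, led by S100a4 and the cytokine gene Il22, which held 59 CKO and 15 control cells, and there the levels were 108 and 54.1 CPM (81.7 to 139 and 19.8 to 118). In Treg-like cells Ccr6 had 51 and 33 UMIs (15.4 and 8.84 CPM, 1.75, 1.11 to 2.80), 1 of 6 measured members past 1.5-fold higher there (background 3.97%). In γδ-like cells, led by Cd163l1, Il17a and Blk, it had 40 and 17 UMIs (51.7 and 106 CPM, 0.486, 0.269 to 0.914), with 101 CKO and 17 control cells.

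Cxcr5 had 78 UMIs in CKO and 130 in control T cells (0.546, 0.407 to 0.728). Its highest level was in S100a4-low memory-like CD4 cells, a type led by Maf, Tbc1d4 and Izumo1r with 28 CKO and 319 control cells, where it had 7 and 35 UMIs (1.92, 0.721 to 4.395). Treg-like cells had 14 and 25 Cxcr5 UMIs (0.633, 0.304 to 1.27). B-like cells, which carry CXCR5 as a rule, had 11 and 16 UMIs. In none of the 4 types with at least 30 Cxcr5 UMIs did the interval leave 1 out.

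**Figure D4:**
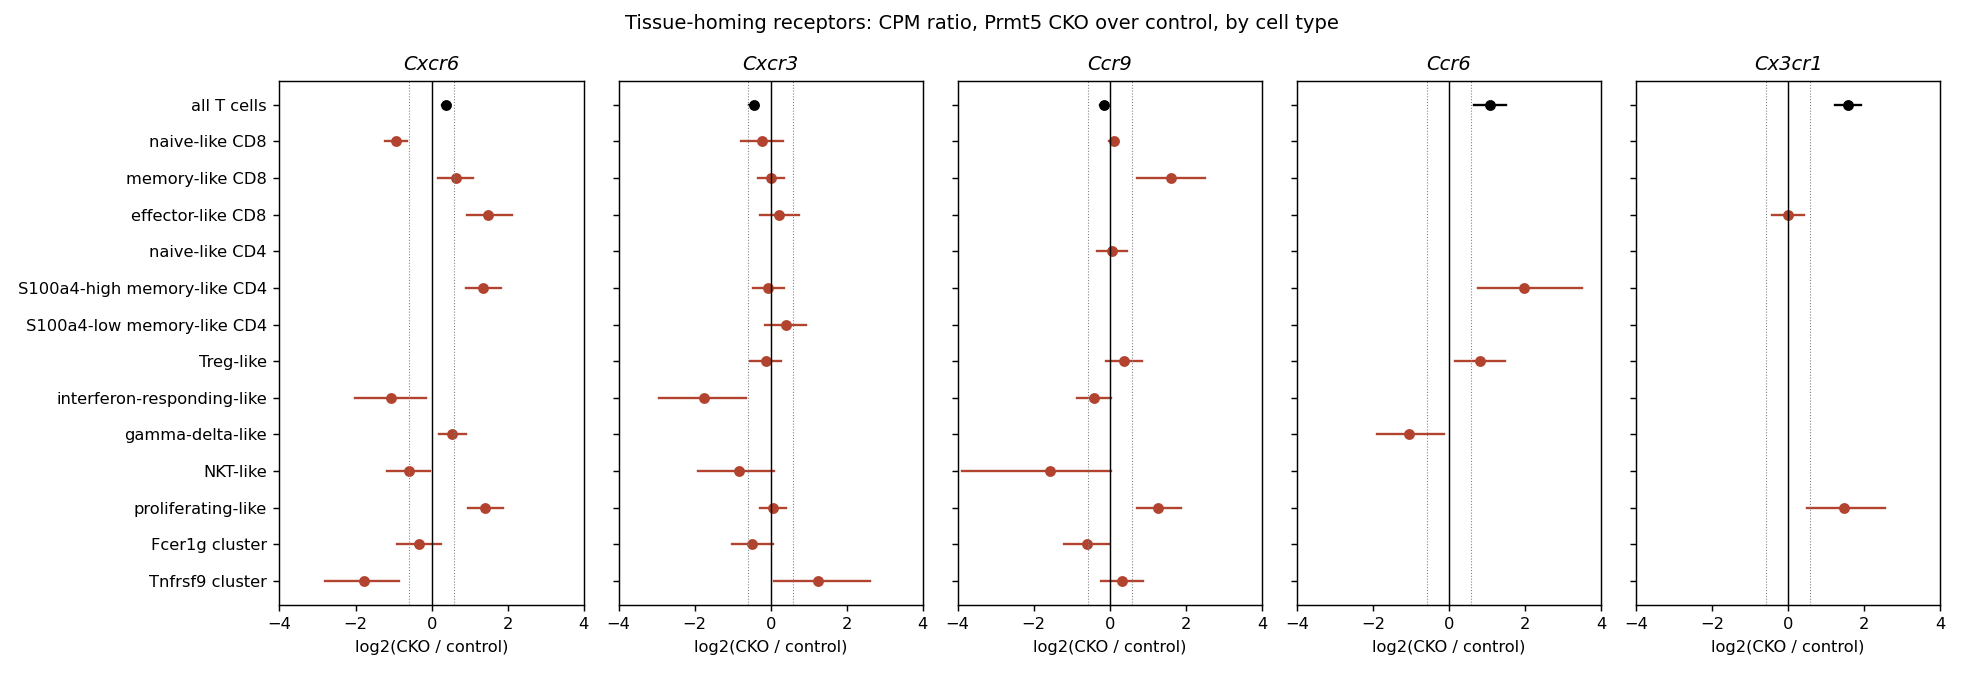
Ratio of CPM in Prmt5 CKO over control on a log2 scale for Cxcr6, Cxcr3, Ccr9, Ccr6 and Cx3cr1 in all T cells (black) and in each T cell type with at least 30 UMIs of the gene in both libraries together (red), with exact 95% intervals for counting error. Dotted lines mark 1.5-fold, and the Cxcr6 ratio stands at 2.81 in effector-like CD8 and 0.524 in naive-like CD8 cells.

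The makeup of the libraries differed, so the ratios over all T cells were computed again with the CKO types weighted by their share of UMIs in the control library. The CKO library had 52.7% naive-like CD4 cells and the control library 42.9%, with 17.0% and 24.1% naive-like CD8, 1.996% and 5.51% memory-like CD8, 0.370% and 4.82% S100a4-low memory-like CD4, 1.34% and 0.257% γδ-like and 0.159% and 1.56% NKT-like cells. Types with few CKO cells, such as the 12 NKT-like cells, enter with a larger weight than they had. For Cxcr5 these include the 28 CKO S100a4-low memory-like CD4 cells, with 7 Cxcr5 UMIs. No interval was computed for the weighted ratios. At control makeup the Ccr7 ratio was 0.684, that of Cxcr4 0.635 and that of S1pr1 0.845, close to the values as found. The other ratios shifted towards 1 or past it: Cxcr3 to 0.961, Cxcr6 to 1.01, Cx3cr1 to 1.25, Ccr6 to 1.40, Ccr9 to 1.08 and Cxcr5 to 1.08. The distance from 1 was therefore about as large at control makeup for Ccr7, Cxcr4 and S1pr1, and smaller for the other genes, with Ccr9 and Cxcr5 on the other side of 1.

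**Figure D5:**
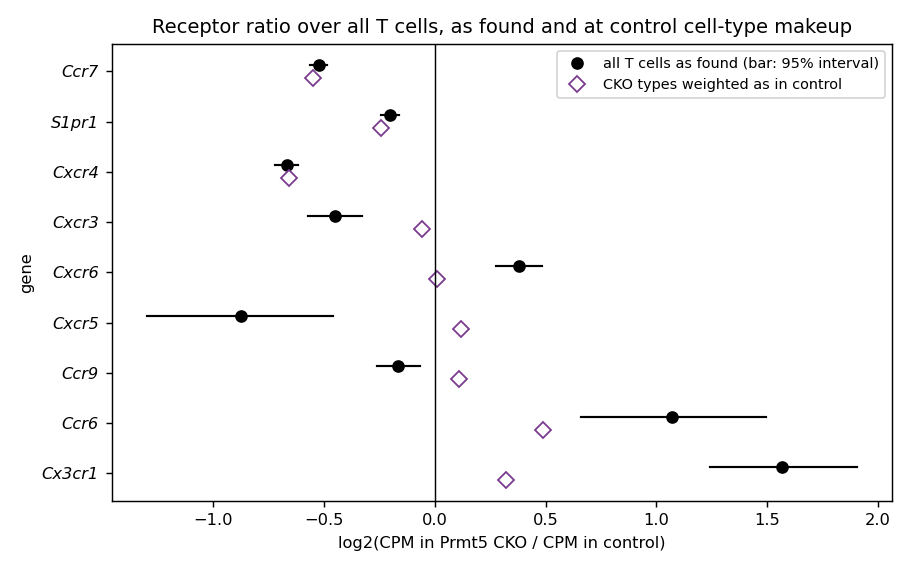
Ratio of CPM in Prmt5 CKO over control on a log2 scale over all T cells, as found (black, with exact 95% interval) and with CKO cell types weighted as in the control library (open diamonds), for the 9 receptors. The ratio of Cx3cr1 is 2.96 as found and 1.25 at control makeup, and that of Ccr7 is 0.696 and 0.684.

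Fewer receptors were found per cell in the CKO library. At 2000 UMIs per cell, 35.1% of CKO and 26.8% of control T cells had no UMI of any of the 9 genes, and 3.70% and 6.79% had 3 or more receptors. In memory-like CD8 cells 39.1% of CKO and 25.2% of control cells had none. The order was the other way in effector-like CD8 cells, where 18.9% of CKO and 33.3% of control cells had none, and in S100a4-high memory-like CD4 cells, with 22.3% and 36.1%.

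Among other chemokine receptors, 6 of 16 listed were measured over all T cells. Of these, 3 were past 1.5-fold higher, among them Ccr2 and Ccr3, and 0 lower (background 4.93% higher and 2.12% lower). Ccr2, a receptor of inflammatory sites, had 22.5 CPM in CKO and 10.2 CPM in control (2.21, 1.99 to 2.47), and Ccr3 had 49 and 15 UMIs (2.97, 1.64 to 5.71). Inside effector-like CD8 cells Ccr2 had 205 and 189 CPM (1.08, 0.824 to 1.44), and in Treg-like cells 37.0 and 17.1 CPM (2.16, 1.58 to 2.96). In γδ-like cells, 1.34% of CKO and 0.257% of control T cells, it had 336 and 37 UMIs (1.88, 1.33 to 2.71). Its UMIs in S100a4-high memory-like CD4 cells were 174 and 40 (1.78, 1.26 to 2.58). In memory-like CD8 cells it had 16 UMIs in CKO and 44 in control (1.01, 0.531 to 1.82), and in NKT-like cells 10 and 157, a ratio past 1.5-fold lower (0.580, 0.273 to 1.10). Of the ligands of the 9 receptors, 3 of 12 were measured in T cells and 0 passed 1.5-fold over all of them, in the same background. Cxcl10, a ligand of CXCR3, was higher in naive-like CD8 cells with 58 UMIs in CKO and 22 in control (3.30, 1.99 to 5.66). Of the factors listed for the members' genes, Zbtb16, the NKT factor, was past 1.5-fold lower, with 96 UMIs in CKO and 171 in control (0.511, 0.394 to 0.660). Tbx21, the factor T-bet that drives Cxcr3, had 6.97 and 7.001 CPM (0.996, 0.855 to 1.16).

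Genes whose levels followed a receptor most closely over 22 points, each a T cell type with at least 50 cells in 1 library, were ranked by Pearson's r of log2(CPM + 10) among 8244 genes, as a description over points that share libraries. Effector-like CD8 cells, the main source of Cx3cr1, gave a CKO point only, since the control library held 45 of them. No control point came from γδ-like cells (17 cells). NKT-like cells (12) and S100a4-low memory-like CD4 cells (28) gave no CKO point. Klf2 led for S1pr1 (r = 0.857), Ifng for Cxcr3 (0.917) and Id2 for Cxcr6 (0.925), with Ccr2 also among its 3 closest genes (0.893). Furin led for Ccr6 (0.894). Gzmk led for Cx3cr1 (0.954), a value that rests largely on the CKO effector-like point. Mogat1 led for Ccr7 (0.897), and the leading values were lower for Cxcr4 (Nmnat3, 0.781), Cxcr5 (Camk2d, 0.761) and Ccr9 (Chst15, 0.737).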

How the data were processed

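CD3+ splenic T cells of 1 Prmt5 CKO and 1 control library (3 mice each) were analysed. The authors deposited raw UMI counts per gene and cell barcode, made with Cell Ranger 3.1.0 against mm10, per the submitters' processing notes. The cell filter kept barcodes of 500 genes or more and a mitochondrial share under 10%. They were clustered (scanpy 1.11.5, Leiden resolution 1 with leidenalg 0.10.2) on 2000 variable genes without 103 receptor and homing genes. Cluster names used fixed markers, but naming thresholds were chosen with the clusters in view. Scrublet called 0 doublets in either library, so doublets remain. Counts were summed per library and cell type and given as CPM of those cells. Levels have exact Poisson intervals, ratios exact conditional binomial intervals and shares Clopper-Pearson intervals (scipy 1.17.1, 95%). They cover counting error only, and with 1 library per group no p-value was computed. For shares, cells were thinned to 2000 UMIs each. A gene counts as measured in a type with at least 50 UMIs in both libraries together, and as past the fold at a ratio of 1.5. All members are described, and genes of the other lists are named where past the fold or of known role. The members and lists were chosen with earlier results of these data known. The calculations were tested on simulated data. Alternatives covered filter, doublet scores, scaling, clustering, gating and thinning, and 4 were added after seeing the data. Values of some listed genes are not reported here.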

Additional observations from a re-analysis of the deposited data

Results flagged for a closer look

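Some receptors differed between the Prmt5 CKO and control libraries in opposite directions in different cell types. These differences between types were not tested, since each group is 1 library. All values are log2 ratios of CPM in CKO over control. For Cxcr6 the ratio was 0.634 in memory-like CD8, 1.49 in effector-like CD8, 1.35 in S100a4-high memory-like CD4 and 1.40 in proliferating-like cells. It was -0.933 in naive-like CD8 cells and -0.585 in NKT-like cells, of which the CKO library held only 12. Without cells holding a UMI of the γδ or Fcer1g-cluster genes it was 0.07 in memory-like CD8 cells. For Ccr9 it was 1.28 in proliferating-like cells and -0.609 in the cluster led by Fcer1g. For Ccr6 it was 1.98 in S100a4-high memory-like CD4 cells and 0.805 in Treg-like cells, against -1.04 in γδ-like cells, of which the control library held only 17.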

How the results depend on the processing

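No paired analysis was possible because each group is 1 library. Ratios are CKO over control over all T cells unless a type is named. With the filter at 1000 genes or more and a mitochondrial share under 5%, Ccr7 was 0.727, Cxcr4 0.670, Ccr6 1.40 and Cx3cr1 1.61, and the direction turned for Ccr9 in the cluster led by Fcer1g (1.22) and, in the cluster led by Myb and Tnfrsf9, for Cxcr3 (0.779) and Cxcr6 (1.40). That filter gave no memory-like or NKT-like clusters, so those types have no value under it. Scaled without mitochondrial and ribosomal protein UMIs, Ccr7 was 0.670, S1pr1 0.838 and Cxcr4 0.606, and by the median of ratios Ccr7 was 0.672 and S1pr1 0.840. As a mean over cells, Cxcr4 was 0.653, Cxcr3 0.6302 and Cxcr6 1.201. The next alternatives were chosen after seeing the data. Without naive-like CD4 cluster 10, Cxcr3 was 0.871, Cxcr6 1.55 and Ccr9 1.05, the last on the other side of 1. With CKO types weighted as in the control library, S1pr1 was 0.845, Cxcr3 0.961, Cxcr6 1.01, Ccr6 1.40 and Cx3cr1 1.25, and Cxcr5 (1.08) and Ccr9 (1.08) turned direction. Without cells with a UMI of the γδ or Fcer1g-cluster genes, Cxcr6 was 1.05 and Cxcr3 0.643 in memory-like CD8 cells, and 11 of 13 values stayed within their counting interval. In Treg-like cells the ratio of thinned Ccr9 shares turned to 0.418 at 1000 UMIs per cell. The cause of these changes was not tested. Leaving out the highest 6% of doublet scores kept 141 of 143 values within their counting interval, Leiden resolution 0.5 kept 108 of 113, clustering with the homing genes 117 of 125 and gating on UMIs 32 of 43. Depth limits the sparse receptors most: Cxcr5 had 78 CKO and 130 control UMIs in all T cells, and Ccr6 164 and 71.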
